A study of Mus musculus with 9 samples.

Results

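A set of 885 low-methylated regions was more methylated in B cells of both Kmt2d mutants than in wild-type B cells. Each region is an autosomal run of 4 or more CpGs that spans 100 bp or more. Within a run, the level averaged over 3 neighbouring CpGs and over the libraries stayed under 50%. A run was tested where every library had at least 30 CpG reads, a CpG read being 1 read over 1 CpG. It was kept where the pooled level, methylated over all CpG reads, was at least 15 percentage points higher than in wild type in both mutants. Of 69708 regions tested, 885 met this rule, which is 1.27%. The regions were thus selected on the measured levels of the mutants and of wild type, so the values below describe them and no test of these differences was made.

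Whole-genome bisulfite sequencing gave the levels. In this assay unmethylated cytosines are converted and read as thymine, while methylated ones are still read as cytosine. The groups are splenic B cells of heterozygotes (HET) and homozygotes (HOM) for Ile5482Asn in Kmt2d, an A>T change at base 98835228 on chromosome 15, and of wild-type mice (WT). B cells were purified from spleen suspensions by magnetic depletion of other cells, and the mice had no treatment. Both mutants' columns carry ENU in their names, the abbreviation of a mutagen used to make point mutations, whereas the WT column lacks it. The labels list 2 B cell samples per genotype, but the counts come as 1 set for each genotype, here termed its library, so no value has a replicate check. Age, sex and strain are not given in the sources used here. Blood samples named in the labels were not analysed here. Taken singly, HET stood at least 15 points above WT in 2445 of the regions tested (3.51%) and at least 15 points below it in 2612 (3.75%). HOM stood at least 15 points above WT in 3680 (5.28%) and at least 15 points below it in 2622 (3.76%).

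KMT2D places monomethylation on lysine 4 of histone H3, mainly at enhancers, and is often mutated in B cell lymphoma. Low-methylated regions outside CpG islands often mark enhancers, where bound transcription factors keep CpGs partly unmethylated. Methylation of lysine 4 on H3, above all its higher forms, weakens the binding of the enzymes that methylate DNA anew.

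The libraries held 282430649 CpG reads in HET, 215454437 in HOM and 200824258 in WT, a mean of 12.9 (HET), 9.85 (HOM) and 9.18 (WT) reads per CpG. The level over all CpGs was 75.6% in HET, 72.3% in HOM and 76.04% in WT. At CpGs far from islands, called open sea, the difference from WT was -0.668 points in HET and -3.44 points in HOM. At the ends of 10 B cell marker genes, the median level was 25.4% in HET, 31.7% in HOM and 40.8% in WT, and at those of 8 T cell marker genes it was 64.8% in HET, 54.1% in HOM and 52.8% in WT. WT stood above both mutants at 8 of the 10 B cell genes and below both at 1. At the 8 T cell genes it stood above both at 1 and below both at 3. It stood above both at 3 and below both at 2 of 6 myeloid genes. For 4 NK cell genes these counts were 0 and 2, and for 1 erythroid gene 0 and 1. The B cell ends ranged from 0.281% to 83.2% in HET, from 0.556% to 76.8% in HOM and from 1.004% to 92.2% in WT, and the T cell ends from 3.97% to 80.1% in HET, from 6.73% to 63.7% in HOM and from 5.79% to 64.7% in WT. The part of cell composition in the differences below was not tested, and in bulk DNA a partial gain in all cells and a full gain in some cells cannot be told apart.

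Of the 885 regions, 25 overlap a promoter window of RefSeq, which reaches from 250 bases before to 50 after a gene start. Sequences of 3 of these promoters are shown because most of their single CpGs follow the pooled difference. They were chosen after their values were seen, from 6 promoters whose CpGs were read singly, and the others were more mixed. Both mutants stood above WT at 8 of 13 CpGs at Gm30539, at 4 of 6 at Pde1a and at 2 of 8 at Gm31143. Each printed sequence is the 250 bases before the gene start, 5′ to 3′ on the strand of the gene, from RefSeq with build GRCm38.p6. Capitals mark the CpGs of the region that had reads in every library. Lower-case cg within the span of a region lacked reads in some library.
Slc2a5 (chr4:150119094-150119343, + strand): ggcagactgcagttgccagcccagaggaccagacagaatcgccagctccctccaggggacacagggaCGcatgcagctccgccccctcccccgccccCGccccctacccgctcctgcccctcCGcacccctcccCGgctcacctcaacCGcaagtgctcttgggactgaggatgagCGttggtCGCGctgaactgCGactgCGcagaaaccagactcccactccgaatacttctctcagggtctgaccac
AI463170 (chr12:76547926-76548175, - strand): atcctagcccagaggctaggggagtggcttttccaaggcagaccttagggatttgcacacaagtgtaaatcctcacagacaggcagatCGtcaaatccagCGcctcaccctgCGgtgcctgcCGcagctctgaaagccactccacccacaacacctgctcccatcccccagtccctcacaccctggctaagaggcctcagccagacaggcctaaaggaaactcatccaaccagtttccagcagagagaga
1600014C10Rik (chr7:38183537-38183786, + strand): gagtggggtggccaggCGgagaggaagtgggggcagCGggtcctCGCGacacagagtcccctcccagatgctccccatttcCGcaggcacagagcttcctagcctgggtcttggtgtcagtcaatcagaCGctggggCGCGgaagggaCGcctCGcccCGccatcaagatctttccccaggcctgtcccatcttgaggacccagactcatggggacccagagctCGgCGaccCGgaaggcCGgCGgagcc

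At Slc2a5, the gene of a fructose transporter, the region (chromosome 4, 150119161 to 150119296) stood at 63.6% in HET over 107 CpG reads, at 39.7% in HOM over 73 and at 17.4% in WT over 69. All of its 10 CpGs with reads in every library lie in the promoter. Their levels ran from 42.9% to 85.7% in HET, from 16.7% to 63.6% in HOM and from 11.1% to 40% in WT, and each CpG was higher in both mutants than in WT. Single CpGs held 5 to 14 reads. At the 5 CpGs nearest the gene start HOM stood at 16.7% over 6 reads in 4 cases and WT at 14.3% over 7 reads each time. Such repeated values are those of CpGs on the same reads, which are not separate measurements. The promoter of AI463170 overlaps a region within Plekhg3 (chromosome 12, 76547907 to 76548288), which stood at 34.5% in HET over 197 CpG reads, at 44.98% in HOM over 229 and at 11.8% in WT over 153. Here 4 of 4 CpGs of the promoter were higher in both mutants. They stood between 23.8% and 47.8% in HET, between 44.8% and 64% in HOM and between 0% and 13.3% in WT, over 14 to 29 reads. At 1600014C10Rik the 16 CpGs read 0% in WT over 15 to 17 reads, while 14 of them were above 0 in both mutants, with highest values of 40% in HET and 46.7% in HOM. The whole region (chromosome 7, 38183348 to 38184533, 56 CpGs) stood at 24.6% in HET over 2894 CpG reads, at 20.6% in HOM over 1590 and at 1.79% in WT over 949. Both mutants had more reads there, relative to WT, than the library means give, and the part of this in the difference was not tested.

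The 885 regions had a median level of 39.8% in HET, 42.5% in HOM and 17.9% in WT. Their middle 50% of regions lay between 33.6% and 46.3% in HET, between 35.3% and 48.98% in HOM and between 12.9% and 23.7% in WT. Over all 69708 regions tested the medians were 18.1% in HET, 18.8% in HOM and 17.9% in WT. The WT median was thus alike in both sets and the mutant medians were higher in the 885 regions, which the rule favours. This does not show which side is unusual, since the sets differ in mutant level. Where HET and HOM averaged 40 to 50%, the WT median was 36.4% over all regions and 22.1% in the members. The median difference from WT was 20.1 points in HET and 22.3 points in HOM, as the rule fixes. The smaller of both differences was at least 20 points in 299 regions, at least 25 in 96, at least 30 in 44 and at least 40 in 4. In 46 regions both mutants stood over 50% (5.20%, beside 0.158% of all), and in 7 regions WT had no methylated read (0.791%, beside 0.231% of all).

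**Figure D1:**
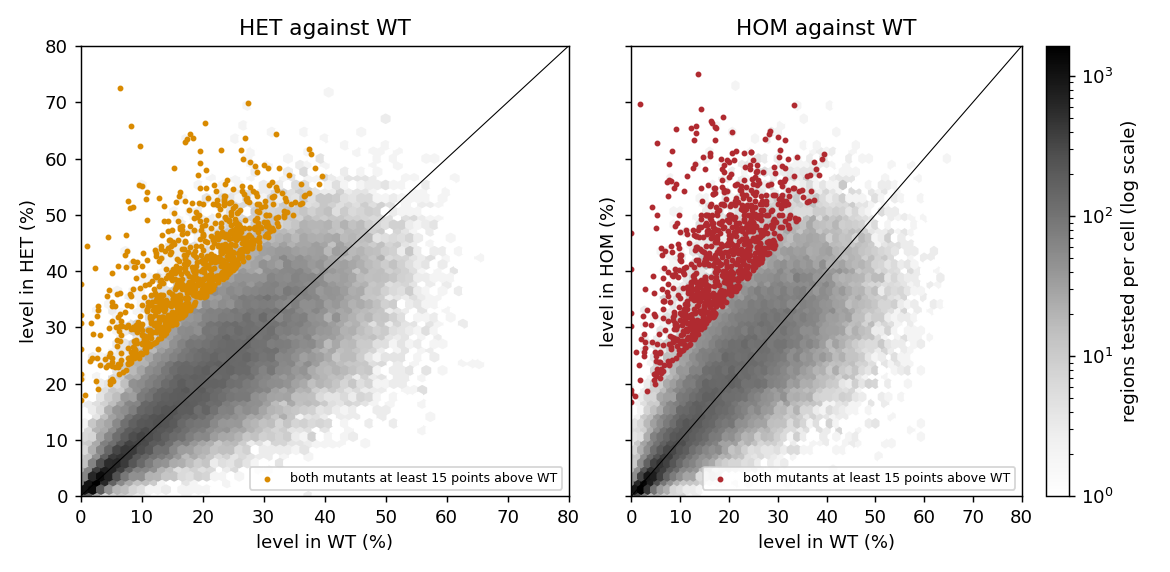
Methylation level of each region tested in HET (left) and HOM (right) against its level in WT (all in %); grey cells count all 69708 regions on a log scale and coloured points are the 885 regions at least 15 points above WT in both mutants. The coloured points begin 15 points above the diagonal because the rule puts them there.

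Most of these regions are short and poor in CpGs. The median was 6 CpGs over 267 bp, against 9 CpGs over 526 bp for all regions tested, and 773 of the 885 (87.3%) held at most 10 CpGs, against 58.2% of all. Exactly 4 CpGs, the minimum, were held by 245 regions (27.7%, against 14.4% of all). CpG density was alike, with medians of 2.38 and 2.22 CpGs per 100 bp. The regions also rest on fewer reads. Median CpG reads were 94 in HET, 74 in HOM and 64 in WT, against 170 in HET, 133 in HOM and 120 in WT over all regions tested. Since a read of 150 bp covers several CpGs, the WT level of a typical member comes from about 24.2 separate reads, estimated as CpG reads over the CpGs that lie within 1 read length of each other, against 43 for all regions. In 305 of the 885 regions (34.5%, against 11.8% of all) WT had under 20 separate reads by this estimate.

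The strongest examples with at least 60 CpG reads in every library lay near genes of varied function. The region with the greatest smaller difference lay 102528 bp from Cdc42ep3, the gene of an effector of the GTPase CDC42 (chromosome 17, 79231021 to 79231195, 6 CpGs). It stood at 65.8% in HET over 76 CpG reads, at 44.4% in HOM over 63 and at 8.22% in WT over 73 (95% Wilson intervals 54.6 to 75.5 in HET, 32.8 to 56.7 in HOM and 3.82 to 16.8 in WT). At Ap1m2, the gene of a clathrin adaptor subunit of epithelial cells, a region at one gene end (chromosome 9, 21312243 to 21312358, 11 CpGs, in a CpG island) stood at 52.5% in HET, 53.8% in HOM and 17.2% in WT over 80 (HET), 91 (HOM) and 99 (WT) CpG reads. A region 14475 bp from Trub1, a pseudouridine synthase gene (chromosome 19, 57505480 to 57505665), stood at 40.9% in HET, 44.05% in HOM and 6.06% in WT. In these regions the intervals of WT lie below those of both mutants, which the choice of the regions favours. The intervals treat CpGs as independent. By the estimate above WT had about 21.9 separate reads at the Cdc42ep3 region, 10.6 at Ap1m2 and 11.5 at Trub1.

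Among the other named regions of this kind, the best covered was that within Btbd3, a gene needed for dendrite orientation in neurons. It overlaps a promoter window (chromosome 2, 138278063 to 138278567, 12 CpGs) and stood at 49.6% in HET, 54.5% in HOM and 19.1% in WT over 367 (HET), 202 (HOM) and 283 (WT) CpG reads. The region at Arl14, an ARF-like GTPase gene (chromosome 3, 69223296 to 69223930), stood at 50.3% in HET, 48.6% in HOM and 15.3% in WT over 183 (HET), 177 (HOM) and 157 (WT). That within Mindy4 (chromosome 6, 55276585 to 55277061), from a family of deubiquitinases, stood at 43.5% in HET, 39.8% in HOM and 7.55% in WT. The region at Tnp2, which packs DNA in spermatids (chromosome 16, 10788406 to 10788699), stood at 40.7% in HET, 39.5% in HOM and 8.99% in WT, and that 4023 bp from Nanos3, a germ cell RNA-binding protein gene (chromosome 8, 84180575 to 84180730), at 41.6% in HET, 48.5% in HOM and 9.30% in WT. A region 12555 bp from Irak3, a brake on Toll-like receptor signalling (chromosome 10, 120128812 to 120129093), stood at 45.5% in HET, 52.4% in HOM and 14.4% in WT. The remaining ones, in Ccdc47, 36591 bp from Rsph3b and in 4921517D22Rik, had smaller differences of 33.3, 31.5 and 33.5 points.

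**Figure D2:**
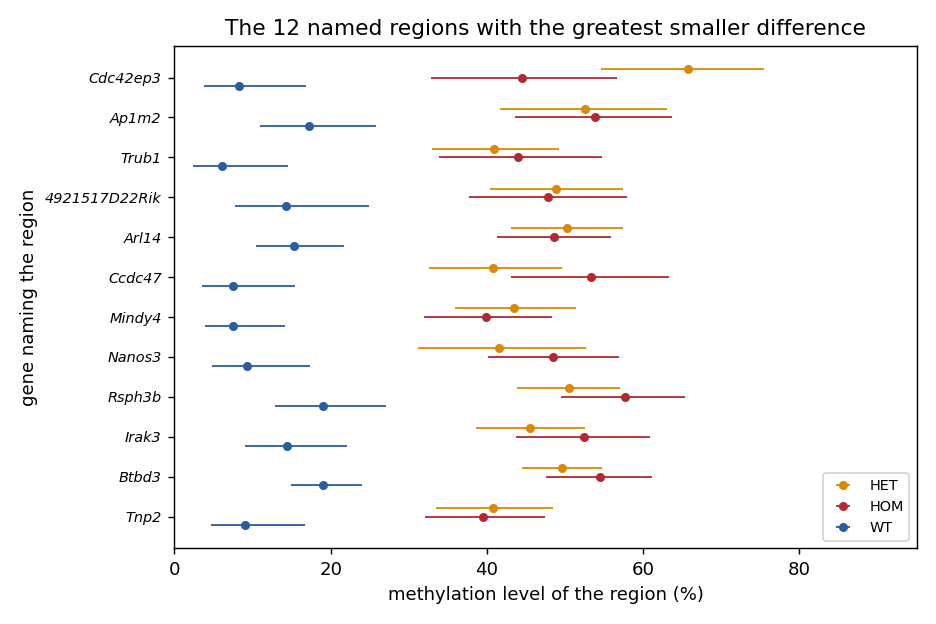
Methylation level (%) of the 12 named regions with the greatest smaller difference in HET, HOM and WT; points are pooled levels and bars 95% Wilson intervals, which cover counting error only. Every WT point lies below 20% and every HET and HOM point lies between 39.5% and 65.8%.

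The regions with the most CpGs lay inside genes and overlapped CpG islands. The region of Kcnk12, a potassium channel subunit gene, held 89 CpGs (chromosome 17, 87745909 to 87746724) and stood at 26.4% in HET, 31.3% in HOM and 8.55% in WT over 802 (HET), 364 (HOM) and 538 (WT) CpG reads. An island within Pax5, the master regulator of B cell identity, held 63 CpGs 45949 bp from a gene end (chromosome 4, 44664076 to 44664745). It stood at 27.3% in HET, 30.6% in HOM and 12% in WT over 422 (HET), 447 (HOM) and 209 (WT) CpG reads. By the estimate above WT had about 13.4 separate reads at Pax5, beside 31.6 at Kcnk12. The region in Def6, the gene of a guanine nucleotide exchange factor of lymphocytes (chromosome 17, 28223515 to 28224453, 48 CpGs), stood at 21.7% in HET, 42.9% in HOM and 6.25% in WT over 785 (HET), 767 (HOM) and 880 (WT), and HOM stood 21.2 points above HET. Rtkn (chromosome 6, 83142263 to 83142716, 40 CpGs), stood at 33.7% in HET, 43.75% in HOM and 13.1% in WT, and Kifc2, a kinesin gene (chromosome 15, 76666543 to 76667288, 37 CpGs), at 37.4% in HET, 40.7% in HOM and 12.8% in WT. A deeply read region without an island lay in Rspo1, which encodes an enhancer of Wnt signalling (chromosome 4, 125007115 to 125008292), with 42.2% in HET, 36.8% in HOM and 21.2% in WT over 650 (HET), 495 (HOM) and 532 (WT) CpG reads. With every CpG of a region weighted equally, in place of every read, the smaller difference was under the limit of 15 points at Pax5 (13.1), Def6 (13.7) and Rspo1 (12.9).

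Genes of the B cell identity list, such as Pax5 and Ebf1, bore 5 of the 885 regions. These were 5 of the 162 regions tested that carry a name from the list (3.09%), beside 1.27% of all. The median difference from WT over the 162 was below 0 in both mutants, at -3.61 points in HET and -1.94 in HOM, beside 0.125 in HET and -0.0354 in HOM over all regions. Besides Pax5, a region in Ebf1, a pioneer factor of the B lineage (chromosome 11, 44897406 to 44897784), stood at 40.4% in HET, 51.6% in HOM and 24.4% in WT over 141 (HET), 64 (HOM) and 41 (WT) CpG reads, and its smaller difference was 13.2 points with CpGs weighted equally. Bcl11a, a transcription factor needed for early B cells, had its end nearest to a pair of regions at distances of 53135 and 576668 bp. They stood at 40.3% and 42.6% in HET, 36.6% and 47.8% in HOM and 18.4% and 20.7% in WT. The last, in the kinase gene Blk, was named after its values were seen and stood at 47.4% in HET, 56.4% in HOM and 31.6% in WT.

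The list of germinal centre and activation genes bore 4 regions of 202 tested (1.98%). The region in Bach2, a repressor that holds back plasma cell fate (chromosome 4, 32288204 to 32288856), stood at 34.1% in HET, 37.97% in HOM and 13.6% in WT over 138 (HET), 79 (HOM) and 81 (WT) CpG reads. The region 6245 bp from S1pr2, which confines B cells to germinal centres (chromosome 9, 20983038 to 20983500), stood at 41.8% in HET, 27.6% in HOM and 8.59% in WT over 146 (HET), 152 (HOM) and 128 (WT). The region in Nfkb1, an NF-kB subunit gene (chromosome 3, 135602758 to 135603350), stood at 39.2% in HET, 40.4% in HOM and 22.2% in WT over 227 (HET), 114 (HOM) and 207 (WT). Near Bcl6, the master regulator of germinal centres, a region 2468 bp from the gene, named after its values were seen, stood at 27.3% in HET, 47.4% in HOM and 11.1% in WT over 77 (HET), 38 (HOM) and 54 (WT). With CpGs weighted equally the smaller difference was 14.7 points at S1pr2 and 12 points at Nfkb1, under the limit.

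The list of genes linked to KMT2D in lymphoma bore 3 of 204 regions (1.47%). A region in Arid1a, a chromatin remodeller subunit gene (chromosome 4, 133728282 to 133728423), stood at 40.9% in HET, 42.7% in HOM and 10% in WT over 88 (HET), 82 (HOM) and 50 (WT) CpG reads. A region 3934 bp from Traf3, an inhibitor of non-canonical NF-kB signalling (chromosome 12, 111162214 to 111162387), stood at 37.7% in HET, 60.5% in HOM and 16.1% in WT over 308 (HET), 301 (HOM) and 236 (WT), and HOM exceeded HET by 22.8 points. Il6st, the gp130 receptor subunit gene, held the last at 53.3% in HET, 45.2% in HOM and 28.8% in WT. Of B cell receptor and Toll-like receptor signalling genes, Malt1 and Prkcb bore 2 of 201 regions (0.995%), with 27.05% and 23.6% in HET, 42.2% and 26.6% in HOM and 10% and 8.11% in WT. The region named for Malt1 lay 18730 bp outside the gene. Of B cell migration genes, Gpr183, a chemoattractant receptor gene, bore 1 of 86 (1.16%), with 28.2% in HET, 31.7% in HOM and 11.1% in WT. With CpGs weighted equally the smaller difference was 9.96 points at Il6st (16.3 by reads), 13.6 at Prkcb and 14.2 at Gpr183, under the limit.

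Among markers of other cells, T cell genes bore 4 of 174 regions, near Thy1, Lef1, Cd4 and Bcl11b, the last named after its values were seen. The median difference from WT over the 174 was 1.58 points in HET and 1.27 in HOM, and over the 39 regions of NK cell genes 2.07 points in HET and 0.96 in HOM. The region 29277 bp from Thy1 stood at 48.2% in HET, 48.9% in HOM and 24.7% in WT, that in Lef1 at 42.3% in HET, 56.4% in HOM and 24.7% in WT, and that in Cd4 at 42.2% in HET, 41.9% in HOM and 25% in WT. The promoter window region at S100a8, a calcium-binding protein gene of granulocytes, was the 1 member among 77 myeloid regions (1.30%) and stood at 44.3% in HET, 37.02% in HOM and 21.5% in WT. Near Bcl11b the levels were 23.7% in HET, 23.4% in HOM and 7.69% in WT. Developmental regulators bore 2 of 142 (1.41%). Both lay outside the gene that names them, at 346559 bp from Sox2 and 49826 bp from Otx2. They stood at 48.1% in HET, 56.1% in HOM and 25.9% in WT for Sox2, and at 40.9% in HET, 40.5% in HOM and 25% in WT for Otx2. Among the list regions named by rule, the 95% Newcombe counting interval of the smaller difference reached below 0 for those of Ebf1 (-0.803), Il6st (-4.57), Cd4 (-1.65) and Gpr183 (-1.28). None of the 39 NK cell, 13 erythroid and platelet, 22 H3K4 methyltransferase and KMT2D complex, and 52 DNA methylation machinery regions was a member. No list was tested, and counts of 0 to 5 do not set a list apart from the 1.27% of all regions.

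Most genes bore a single region. The 885 regions carried 811 gene names, 67 of them more than once and 7 of them 3 times. Those 7 are Gm46963, Pitpnm2, Tmem100, Zbtb16, Zfhx3, Zfp423 and Tcf7l2. Zbtb16 is the gene of a zinc finger factor of innate-like lymphocytes. Zfhx3 and Zfp423 are also transcription factor genes, and Tcf7l2 is a Wnt effector gene. The number of regions tested per gene was not taken into account. The 3 regions in Zbtb16 stood at 27.03%, 35.8% and 41.7% in HET, at 34.1%, 36.7% and 45.7% in HOM and at 11.4%, 13.2% and 17.5% in WT. In 20 cases neighbouring regions lay within 5 kb of each other. At Asb4, for example, a pair of regions on chromosome 6 (5382546 to 5383302 and 5383804 to 5384637) stood at 33.02% and 28.6% in HET, 27.4% and 33.1% in HOM and 2.82% and 3.19% in WT, over 177 and 251 CpG reads in WT. Regions closer than a fragment of about 800 bp can hold CpGs of the same molecules.

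The limit of 15 points separates regions of nearly equal values. Among regions with at least 60 CpG reads in every library, the 3 just inside were near Klhl3, Retreg1 and Rasgrp1, with smaller differences of 15.01, 15.01 and 15.02 points. The 3 just outside were near Grik3, Gpr142 and Abr, with 14.98, 14.96 and 14.95 points. The regions named for Rasgrp1 and Grik3 lay 74315 and 104858 bp outside the gene. At Retreg1 the levels were 25.7% in HET, 25.95% in HOM and 10.7% in WT, and at Abr 22.1% in HET, 27.8% in HOM and 7.14% in WT.

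Both differences are taken from 1 WT library, so a WT level read low by sampling puts HET and HOM above it together. As a description, the same rule was applied with each library in the place of WT. These counts mix sampling with any true difference of the library that stands apart. They therefore do not measure the part of sampling in the 885. HET and HOM both stood at least 15 points above WT in 885 regions (1.27%) and at least 15 points below it in 991 (1.42%). WT and HOM both stood above HET in 698 regions (1%) and below it in 693 (0.994%). WT and HET both stood above HOM in 676 regions (0.97%) and below it in 1411 (2.02%). Each library was thus the low one in over 600 regions, and WT in 39.2% of those cases. WT also had the fewest reads and regions are not replicates, so this share is not to be set against equal shares. More regions were lower than WT in both mutants than were higher. The count depended on which libraries defined the runs. With runs defined on HET and HOM without WT, 384 regions met the rule and WT was the low library in 16.3% of cases, and with runs defined on WT alone 2741 regions met it. The direction of both shifts is built in. Runs defined by low HET and HOM select against high mutant levels, and runs defined by WT select WT levels read low. With a limit of 30 points WT was the low library in 44 regions, HET in 17 and HOM in 39.

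**Figure D3:**
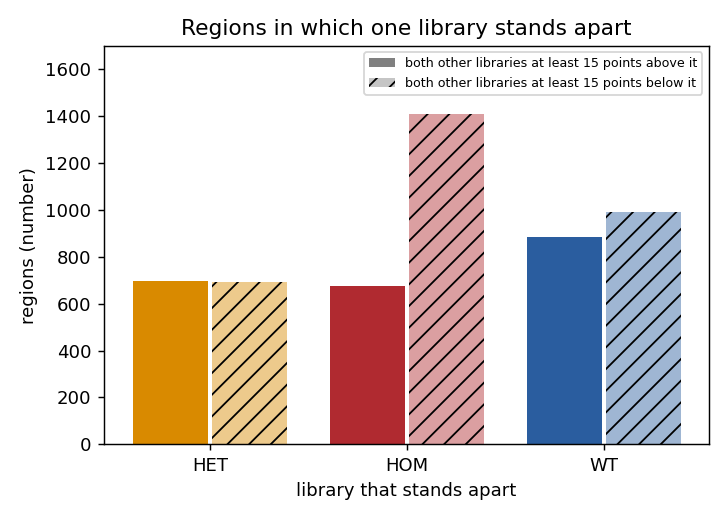
Number of regions in which both other libraries stand at least 15 points above (solid) or below (hatched) HET, HOM or WT. The solid bars stand at 698 for HET, 676 for HOM and 885 for WT, and the tallest bar is the hatched one of HOM at 1411.

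The share of regions that met the rule depended on depth. Where WT had 30 to 59 CpG reads, 3.26% of 12205 regions were members. The share was 1.68% at 60 to 99 reads, 0.903% at 100 to 199 reads and 0.190% of 23114 regions at 200 reads or more. When HET was the low library the shares ran from 3.43% to 0.187% over the same classes, and when HOM was, from 2.74% to 0.0831%. At 200 or more reads of the library that stands apart, 44 regions had both mutants above WT and 25 had both below, 57 had both others above HET and 57 below, and 21 had both others above HOM and 131 below. In regions with at least 100 CpG reads in every library WT was the low one in 46.1% of cases.

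**Figure D4:**
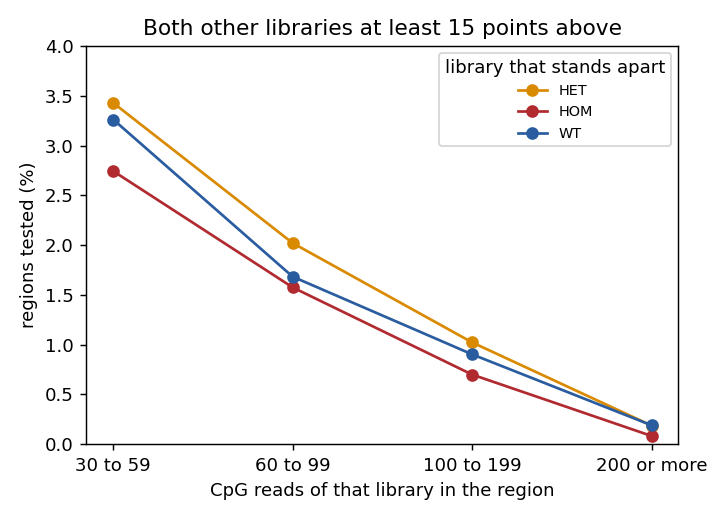
Percent of the regions tested in which both other libraries stand at least 15 points above HET, HOM or WT, against the CpG reads of that library in the region. All 3 lines are lower at higher depth, and that of WT stands at 3.26% at 30 to 59 reads and at 0.190% at 200 or more.

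Over all regions, WT differed from the mean of HET and HOM with a standard deviation of 7.32 points. Counting every CpG read as independent gives 4.87 points, and counting separate reads gives 8.03 points, which is above the spread observed, so this estimate overstates the counting error. The values for HET were 6.77, 4.50 and 7.42 points and those for HOM 7.44, 4.76 and 7.84 points. The part of sampling in the differences of single regions cannot be read from these values. The members are the low end of the WT levels at a given mutant level. Of 3693 regions in which HET and HOM averaged 40 to 50%, WT had a median of 36.4%, and 5% of them had a WT level under 20.5%. The 364 members among them (9.86%) had a WT median of 22.1%. Of 370 regions at 50 to 60%, 137 (37.03%) were members. A further WT library would show how far these WT levels return toward those of the mutants (regression to the mean), which cannot be measured with 1 library per genotype.

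CpGs outside the regions entered the rule only where they end a run. Next to the regions the mutants were higher, the difference fell with distance, and beyond 1000 bp neither mutant was higher. At 1 to 150 bp from an edge HET stood at 65.9%, HOM at 66.99% and WT at 55.6%, differences from WT of 10.3 points in HET and 11.4 in HOM. At over 150 and up to 300 bp the differences were 4.27 points in HET and 3.67 in HOM, and up to 500 bp 2.21 in HET and 0.406 in HOM. At over 500 and up to 1000 bp they were 0.599 points in HET and -1.62 in HOM, beside -0.341 and -3.21 around all regions tested. CpGs this near can share reads or fragments with the region, since DNA was sheared to about 800 bp. At over 1000 and up to 3000 bp, beyond a fragment, HET stood at 83.3%, HOM at 80.7% and WT at 83.5% over 33360 CpGs. The difference was -0.145 points in HET (95% Newcombe interval -0.298 to 0.00861) and -2.75 points in HOM (-2.92 to -2.59). Around all regions tested the differences at this distance were -0.462 points in HET and -3.37 in HOM. With levels scaled to equal open sea, the difference in the flanks of the regions that then met the rule was 0.441 points in HET and 0.674 in HOM, so the sign of the HOM difference turns with the scaling. Unscaled, the flanks of the 885 regions lay within 1 point of that background. CpGs of low-methylated runs were left out there, and WT already stood at 83.5%. A gain as large as inside the regions was thus not possible in the flanks, and 1 of 15 points hardly so. The flanks therefore cannot show how far the gain extends. Of 883 regions with enough flank reads, both mutants stood above WT in the flank in 175 (19.8%), beside 14.4% of all regions, and by 15 points or more in 0, beside 0.0331% of all.

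**Figure D5:**
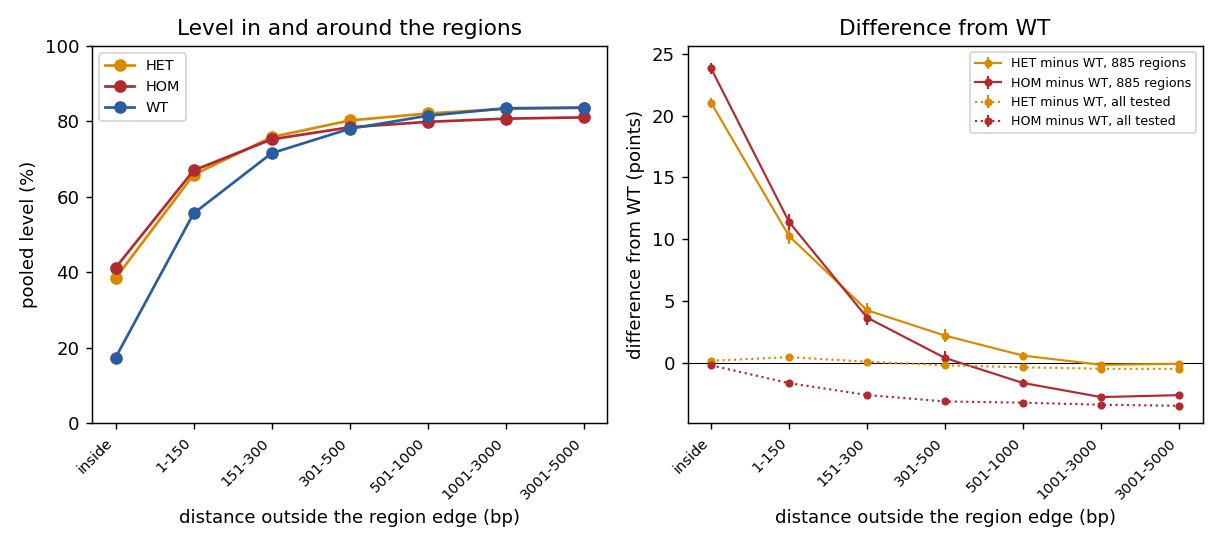
Left, pooled level (%) in HET, HOM and WT inside the 885 regions and in bands of distance (bp) outside their edges; right, difference from WT in points for these regions (solid) and for all regions tested (dotted), with 95% Newcombe intervals as bars. The differences stand at 21.04 points (HET) and 23.8 points (HOM) inside and at -0.145 points (HET) and -2.75 points (HOM) at over 1000 and up to 3000 bp.

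HOM was above HET in 529 of the 885 regions (59.8%, beside 48.4% of all tested) and below it in 353, and in 3 they were equal. HOM minus HET had a standard deviation over regions of 9.23 points, beside 8.13 over all tested. Pooled over reads HOM exceeded HET by 2.78 points (41.2% in HOM and 38.4% in HET, 95% Newcombe interval 2.34 to 3.22). Over all regions tested HOM minus HET, also pooled over reads, was -0.366 points. As a mean over regions, HOM minus HET was 2.42 points in the 885 and 0.416 points over all tested, so the sign of the background depends on the weighting. HOM stood at least 15 points above HET in 73 regions (8.25%, beside 4.42% of all) and at least 15 points below it in 24 (2.71%, beside 3.17%). Both levels were used by the rule, so this is a description. Whether the mutated allele acts by dose cannot be told from 1 library each.

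The regions were spread over all 19 autosomes. They made up 0.818% of the regions tested on chromosome 16 and 1.72% on chromosome 17, the lowest and the highest share (95% Wilson intervals 0.524 to 1.27 and 1.32 to 2.24). The stretch of 5 Mb with the most members, at 25000001 to 30000000 of chromosome 17, held 16 of its 477 regions (3.35%), among them that of Def6. A stretch on chromosome 12 (15000001 to 20000000) held 7 of 100. Within 5 Mb of the mutated position on chromosome 15 lay 10 members of 693 regions tested, 1.13% of the members beside 0.994% of all tested. CpGs at 10% or less in 1 library or more and at 80% or more in the rest, called variant-like here, made up 1 of the 6399 CpGs in the regions. Such a CpG lay in 1 of the 885 regions (0.113%), beside 41 of all tested (0.0588%). CpGs between 10% and 80% in any library do not meet this definition, so the count does not cover all sequence variants. Coverage of WT relative to a mutant was over 2 times off its usual ratio in 47 regions (5.31%, beside 2.33% of all), and the part of uneven coverage in the differences was not tested.

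Of the 885 regions, 505 lay inside a protein-coding gene (57.1%, beside 58.4% of all tested). Gene ends lay within 1000 bp of 71 regions (8.02%, beside 21.8%), and 22 overlapped a CpG island (2.49%, beside 19.1%). A region with a mutant under 15% cannot meet the rule, and of 19292 regions with a mutant mean under 10%, 0 were members. The part of this limit in the lower shares was not tested. Another 131 regions (14.8%, beside 13.1%) lay outside genes and over 50 kb from one.

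Letters of known binding motifs were counted on both strands of the 27 promoter windows that overlap one of the regions. The ETS core of PU.1, AGGAAGT, stood in 6 windows (22.2%, beside 9.37% of all 31396 windows on autosomes). The E-box of E2A, CAGCTG, stood in 7 (25.9%, beside 16.3%), the OCT2 letters ATGCAAA in 3 (11.1%, beside 4.68%) and the NF-kB letters GGGACTT in 2 (7.41%, beside 5.46%). The RUNX letters TGTGGTT, the AP-1 letters TGANTCA and the GATA letters AGATAAG stood in 1 window each (3.70%, beside 5.32%, 7.84% and 3.03%). With 27 windows these shares rest on few counts, and several windows can belong to 1 region. A match is no binding site. Of the promoters printed above, that of 1600014C10Rik holds the ETS letters and the other promoters printed hold none of these motifs.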

How the data were processed

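The deposited table holds, per the file headers, unnormalized read counts for each CpG (methylated reads and all reads covering it). Columns were assigned to genotypes by their names. The sources used here do not say which of the 2 B cell samples of a genotype a column holds, or if it is a pool, nor the filters applied. The submitters' processing notes name mm10 among the builds. For 1 B cell sample per genotype they list Bismark, Bowtie2, Trim Galore 0.2.8 and Picard 1.91, and for the other BWA 0.7.13, MethylDackel and Picard 2.3.0.

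Regions were found with Python 3.11.15, numpy 2.4.6 and pandas 2.3.3, from CpGs covered in all libraries. The rule names no islands, so they were kept. The segmentation was run on simulated counts, with planted runs that held more CpGs than most members and with CpGs drawn independently. It does not show how often short, thinly read runs meet the rule by sampling. Levels have 95% Wilson intervals and differences Newcombe intervals, which cover counting error only and treat CpGs as independent. With 1 library per genotype no test was made. All 395568 CG letters in the RefSeq promoter windows (GRCm38.p6, the assembly of mm10) stood at deposited CpG positions. CpG islands were found from CpG positions alone (over 200 bp, at least 6 CpGs per 100 bp). A region carries the name of the protein-coding gene that contains it, or else of that with the nearest end. RefSeq gene spans were used, without exons.

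Named regions are the 12 with the greatest smaller difference at 60 CpG reads or more per library, the 6 with the most CpGs, the 6 with the most WT reads, up to 3 per gene list and the 3 on each side of the limit. The members, lists and rules were chosen with earlier results of these data known. Alternatives are given in the closing section.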

Additional observations from a re-analysis of the deposited data

How the results depend on the processing

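The number of regions depended on the limits, at 2678 with a difference of 10 points, 299 with 20 and 96 with 25, at 431 and 177 with at least 60 and 100 CpG reads, at 386 and 110 with a running level under 40% and 30%, and at 463 with at least 6 CpGs. It was 384 where HET and HOM defined the runs without WT and 2741 where WT defined them alone. Other planned settings gave 596 to 1137, and 4 added after the data had been seen gave 814 to 1011, among them 838 without unevenly covered regions. WT was the low library in 46.1% of cases with 100 reads, 35.5% with a running level under 30%, 16.3% with runs defined without WT and 43.5% when levels were scaled to equal open sea. HET minus WT in the flanks was 0.587 points with a difference of 25 points, -0.386 and -0.537 with 60 and 100 reads, -0.473 with a running level under 30%, 0.206 with runs defined without WT and 0.441 when scaled. HOM minus WT in the flanks was -2.02, -3.02, -3.03, -2.33 and -2.48 points under the same settings, -2.58 with other runs kept, and turned to 0.674 when scaled, which removes the open sea difference by construction. HOM minus HET in the regions was 3.24 points with a difference of 25 points, 1.98 with runs defined without WT and 3.35 when scaled. The share inside genes was 61.5% with a difference of 25 points and 62.7% with a running level under 30%, and gene ends lay within 5000 bp of 23.5%. The smaller differences of all 43 named regions stayed within their counting intervals with unweighted CpGs, scaled levels and without variant-like CpGs. With unweighted CpGs, however, 12 of the 40 named members were under the limit of 15 points, the lowest at 9.96 (Il6st), and Klhl3, Retreg1 and Rasgrp1, just inside it, were among them. Of the 3 regions just outside the limit, 3 passed it when scaled and 1 with unweighted CpGs. Apart from the scaling and the choice of libraries that define the runs, the cause of these shifts was not tested. No paired analysis was possible because the columns carry no replicate numbers, and no replicate could be left out for the same reason.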

Other observations

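In 23 of the regions tested, both mutants stood at least 15 points above WT in the flanks at over 1000 and up to 3000 bp, and none of these is 1 of the 885. In 110 of all regions tested both mutants were over 50% although the mean over the libraries kept the running level lower, and 46 of these are among the 885. On the mitochondrial chromosome, where cytosines are taken as unmethylated, the level was 0.607% in HET, 0.556% in HOM and 0.492% in WT.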
